A study of Mus musculus with 24 samples.

Results

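The proteasome genes measured in this mouse breast cancer series are 44 of its 12091 listed genes. They were chosen by symbol: Psm, a letter from a to g, and a number. Psmb8 and Psmb9 fit that pattern too and were left out of the members, since they belong to the interferon-inducible antigen-processing genes, where they are reported as context. By role the members are 7 subunits of the alpha ring, 4 non-catalytic and 3 catalytic subunits of the beta ring, the inducible catalytic subunit Psmb10, 6 ATPases of the regulatory cap, 3 other subunits of its base, 8 subunits of its lid, 3 assembly chaperones of the cap, 4 assembly chaperones of the core, 4 activators and the inhibitor Psmf1. Psma8 and Psmb11, the testis and thymus forms, are not in the table. All 44 members passed the filter on low values in each comparison.

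The study asks what blocking pleiotrophin (PTN), a secreted growth factor, does in breast tumors and breast cancer cells. Paired-end RNA sequencing of bulk tumors or cultured cells gave 24 samples in 8 groups of 3 biological replicates, in 4 experiments. A pair of experiments used the monoclonal antibody 3B10 against PTN, with the mouse IgG C44 as control, both at 15 mg/kg. The other pair used an shRNA against Ptn, with the vector pLKO and its hairpin against EGFP as control.

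In the first antibody experiment, 4T1 mammary carcinoma cells grew in the mammary fat pad of female BALB/c mice that were 8 weeks old at injection. In the other, FVB/N mice carried the MMTV-PyMT transgene, a viral promoter that drives the polyoma middle T oncogene in mammary epithelium, and received antibody from 8 to 12 weeks of age. Whole tumors were sequenced in both, so they hold stroma and immune cells beside tumor cells. E0771 is a C57BL/6 mammary cancer line, and E0771-LG was derived from a lung metastasis of E0771. Each line was studied in culture as shCtrl and shPTN cells, both kept in puromycin, with 1 hairpin construct against Ptn. Whether the 3 replicates of a group share an infection is not stated.

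As background, the proteasome is the main machine by which cells degrade proteins tagged with ubiquitin. Its core is a barrel of alpha and beta rings with the cleaving sites inside, and its cap binds the ubiquitin chain, removes it, and unfolds and feeds in the substrate with a ring of ATPases. Interferon induces replacement catalytic subunits and the PA28 activators, which shift the peptides made toward those displayed to T cells, and proteasome inhibitors are established drugs in blood cancers.

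The deposited values of the MMTV-PyMT, E0771 and E0771-LG samples are log2 CPM, and in these 18 libraries the listed genes hold between 15.56M and 21.01M reads, with a median of 18.16M. Even the least covered member of the cell lines, Psmg3 in E0771-LG shCtrl, rests on at least 141 reads in each library, and Psmd2 reached 17990 reads in an E0771 shCtrl library. The 6 4T1 libraries are on a log2 scale of their own, which appears length-normalized, and their depth is unknown, so no level is compared between 4T1 and the rest. Reads that the catalytic subunits share with annotated pseudogene copies cannot be separated in these values: Psmb5 and Psmb7 have 1 such copy each and Psmb6 has 2, and Psme2 has the coding retrocopy Psme2b.

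Levels differed by role. On the scale of log2 CPM per kilobase of mRNA, the 14 standard subunits of the core had a median level of 7.39 in E0771 shCtrl cells, from 6.06 for Psma2 to 8.61 for Psma7. The ATPases stood near them, with a median of 7.19, and the lid lower, with a median of 6.70. Assembly factors were far less abundant, with medians of 4.13 for the chaperones of the cap and 4.69 for those of the core, and Psmf1, which binds the core and inhibits it, stood at 3.97. In E0771-LG shCtrl cells the same medians were 7.30 for the core, 7.34 for the ATPases, 6.96 for the lid, 4.04 and 4.75 for the chaperones and 3.86 for Psmf1. MMTV-PyMT tumors given C44 had medians of 6.80 for the core, 6.39 for the ATPases and 6.06 for the lid.

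Among the catalytic subunits, Psmb6 carries the caspase-like site, Psmb7 the trypsin-like site and Psmb5 the chymotrypsin-like site, the main target of proteasome drugs. Per kilobase, E0771 shCtrl cells had levels of 7.52 ± 0.10 for Psmb6, 7.17 ± 0.23 for Psmb5 and 6.98 ± 0.18 for Psmb7 (SD, n = 3), the last pair within each other's spread. Psmb10, the interferon-inducible form that takes the place of Psmb7, was the least abundant of the 44 members there, at 3.32 ± 0.36. In E0771-LG shCtrl cells Psmb10 stood at 5.44 ± 0.12, rank 35 of 44, and in MMTV-PyMT tumors given C44 at 5.37 ± 0.23, also rank 35. On the separate 4T1 scale, tumors given C44 had 8.89 ± 0.20 for Psmb10, rank 4 of 44, and 8.60 ± 0.07, 7.60 ± 0.17 and 6.40 ± 0.11 for Psmb7, Psmb6 and Psmb5.

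**Figure D1:**
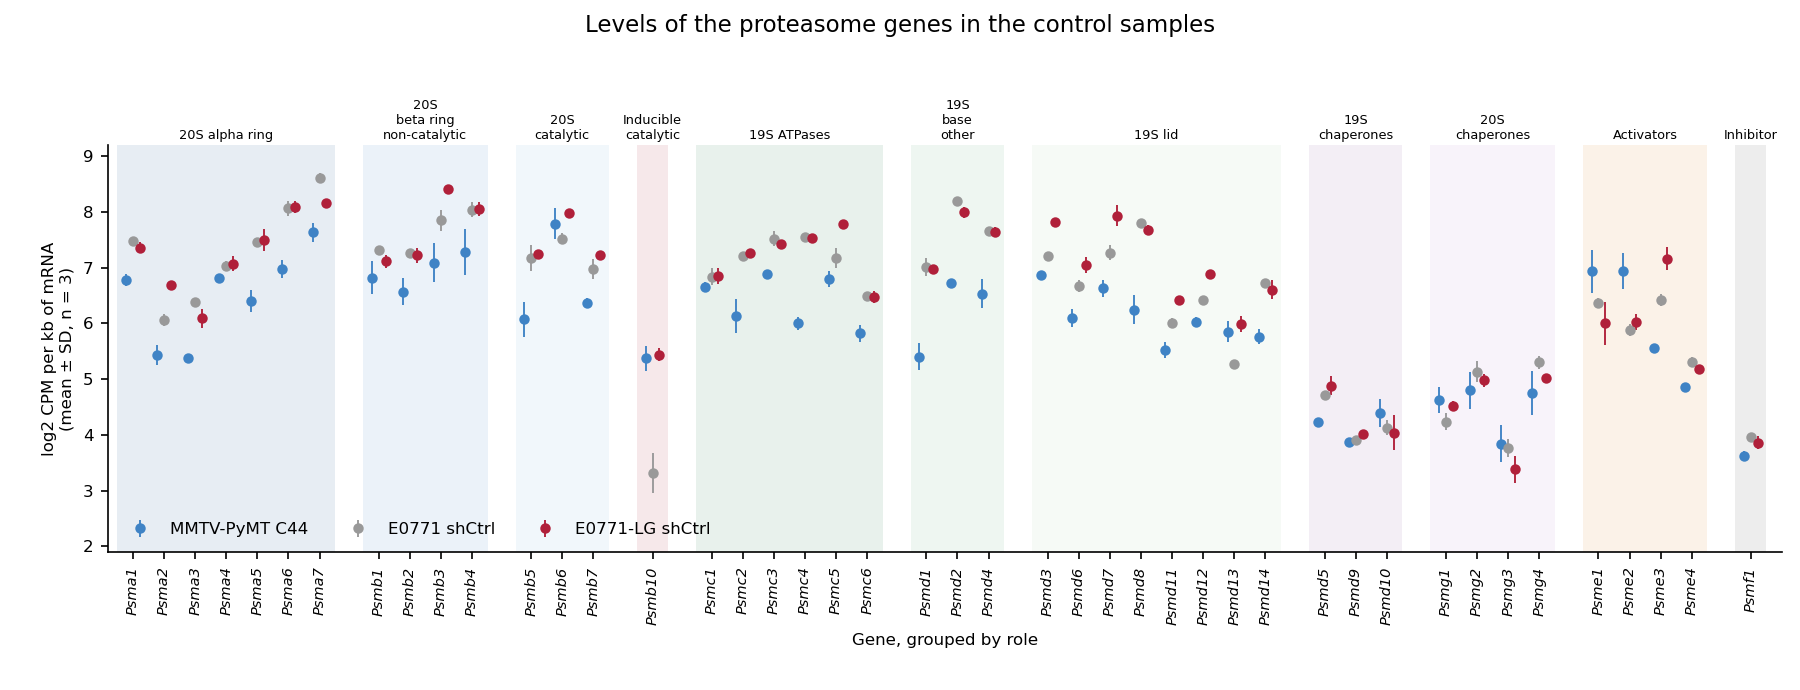
Level per kilobase of mRNA (log2 CPM per kb, mean of 3 libraries) of the members by role in E0771 and E0771-LG control cells and in MMTV-PyMT tumors given C44, with the SD as error bars. Psmb10 stands at 3.32 in E0771, the lowest of all members, and at 5.44 in E0771-LG, while the median of the 14 core subunits is 7.39 and 7.30.

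Promoters of 4 members are shown: Psmb5, Psmc2 and Psmc6, with the smallest adjusted p among members higher after Ptn knockdown in E0771-LG, and Psmb10, the lower member with the smallest. RefSeq (GRCm38.p6) gave a promoter, mostly the bases before the start, for 37 of the 44 members and for 9390 genes of the table. None was listed for Psmb1, Psmb2, Psmb7, Psmc3, Psmd3, Psmd7 and Psmg2. The first promoter listed for a gene was used, each of the 4 shown being 300 bases long. Capitals mark matches, on either strand, to 4 motifs searched: TGACNNNGC (the core of the antioxidant response element that Nfe2l1 and Nfe2l2 bind), CCAAT (the box of NF-Y), CCGGAAG (an ETS core) and the interferon-stimulated response element (GAAA, any 2 bases, GAAA). The Psmb5 promoter is chr14:54617946-54618245 on the minus strand, that of Psmc2 chr5:21785025-21785324 on the plus strand, that of Psmc6 chr14:45329574-45329873 on the plus strand and that of Psmb10 chr8:105938343-105938642 on the minus strand.
Psmb5: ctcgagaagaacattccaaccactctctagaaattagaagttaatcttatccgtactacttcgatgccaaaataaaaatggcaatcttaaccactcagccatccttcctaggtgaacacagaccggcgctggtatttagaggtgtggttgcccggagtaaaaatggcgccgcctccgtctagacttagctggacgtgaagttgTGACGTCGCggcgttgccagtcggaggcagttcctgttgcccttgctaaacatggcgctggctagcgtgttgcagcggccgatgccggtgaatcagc
Psmc2: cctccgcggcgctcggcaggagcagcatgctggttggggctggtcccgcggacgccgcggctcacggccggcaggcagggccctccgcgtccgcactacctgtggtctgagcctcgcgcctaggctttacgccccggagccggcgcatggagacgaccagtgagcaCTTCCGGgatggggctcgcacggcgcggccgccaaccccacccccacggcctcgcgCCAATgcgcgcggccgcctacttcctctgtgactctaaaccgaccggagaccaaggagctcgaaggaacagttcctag
Psmc6: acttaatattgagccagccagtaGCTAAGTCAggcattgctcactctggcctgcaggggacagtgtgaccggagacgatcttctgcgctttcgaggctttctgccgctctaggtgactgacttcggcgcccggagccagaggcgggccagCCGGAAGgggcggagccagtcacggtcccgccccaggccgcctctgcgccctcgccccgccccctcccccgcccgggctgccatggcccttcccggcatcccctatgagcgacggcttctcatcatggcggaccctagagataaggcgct
Psmb10: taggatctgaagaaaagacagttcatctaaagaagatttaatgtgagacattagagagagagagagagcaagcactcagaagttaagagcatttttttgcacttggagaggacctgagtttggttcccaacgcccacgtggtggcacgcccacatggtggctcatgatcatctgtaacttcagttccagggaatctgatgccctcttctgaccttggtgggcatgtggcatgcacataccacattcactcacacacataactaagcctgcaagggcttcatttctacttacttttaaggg

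In the Psmb5 promoter the capitals are TGACNNNGC, 47 bases before the start. Psmc2 holds CCGGAAG on the other strand, 84 bases before the start, and CCAAT 28 bases before it. Psmc6 holds TGACNNNGC on the other strand, 227 bases before the start, and CCGGAAG 100 bases before it, while the Psmb10 window has none of the 4 motifs. A match is a description of letters and not a site shown to be bound.

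Counts of motifs over the members follow, with differences between roles not tested. CCGGAAG was in 13 of 37 member promoters (35.1%) and in 18.8% of all 9390. None of the 11 core promoters held it, against 3 of 5 for the ATPases, 4 of 6 for the lid and 13 of the 26 members outside the core. CCAAT was in 12 of 37 (32.4%, all promoters 38.7%), with 6 of the 11 core promoters. TGACNNNGC was in 6 of 37 (16.2%, all promoters 14.9%): Psmb5, Psmb6, Psmc6, Psmd12, Psmd9 and Psme4. The interferon-stimulated response element was in 5 of 37 (13.5%, all promoters 3.04%): Psmb3, Psmd4, Psmd9, Psmg4 and Psme1.

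The E0771-LG experiment asks what Ptn depletion does in the lung-derived cells. Ptn itself read 3.65, 4.51 and 3.74 log2 CPM in the shCtrl libraries and 1.42, 0.98 and 1.38 in the shPTN libraries, without overlap (log2 fold change −2.71 ± 0.28 SE, limma with Benjamini-Hochberg, adjusted p = 6.30e-05). Of the 44 members, 24 were higher after knockdown at an adjusted p under 0.05, where 24.3% of the 10405 genes tested were, and 4 were lower, where 22.1% were. The members' median log2 fold change was 0.35, against 0.05 over all genes tested, and 36 of the 44 were positive. Under 3 corrections for GC content and length, described further on, 12, 7 and 24 members were higher (18%, 16.1% and 19.9% of all genes). The members' medians were then 0.06, 0.02 and 0.28. These cells are bulk cultures, in which fewer cells expressing a gene and less RNA per cell cannot be told apart.

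In the core all 14 standard subunits passed as higher before any correction for length, with log2 fold changes from 0.34 to 0.87 and a median of 0.51, and in each of them the groups did not overlap, as in 35 of the 44 members and 5945 of the 10405 genes tested. For the 7 alpha-ring subunits, which form the gated outer rings, the changes ran from 0.43 to 0.66. The 4 non-catalytic beta subunits ran from 0.35 for Psmb3 to 0.62 for Psmb1. Leaving out shPTN replicate 2 left Psmb3 (0.30, adjusted p = 0.0558) and Psmb6 (0.30, adjusted p = 0.0561) short of the threshold, so that 12 of 14 passed. Without any other single library, all 14 did. Under the 3 corrections for GC content and length given further on, 6, 4 and 12 of the 14 passed as higher, with core medians of 0.23, 0.09 and 0.36, and Psmb6 was lower under the second.

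Psmb5 had the smallest adjusted p of the members. Its values were 7.02, 7.09 and 7.13 log2 CPM in the shCtrl libraries and 7.92, 8.0 and 7.92 in the shPTN libraries. The groups lay far apart beside their own spread, and the 1.82-fold rise (log2 0.87 ± 0.09 SE) had an adjusted p of 6.30e-05 in limma with Benjamini-Hochberg. Psmb7 read 7.39, 7.44 and 7.47 in shCtrl and 8.07, 7.94 and 7.87 in shPTN, again without overlap, a 1.44-fold rise with an adjusted p of 0.00107 (limma). The smallest change in the core was that of Psmb6, from 7.71, 7.62 and 7.60 to 7.93, 8.05 and 7.96. Its groups did not overlap either, and the 1.26-fold difference had an adjusted p of 0.00972 (limma), with the dependence on shPTN replicate 2 given above, where the adjusted p was 0.0561.

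Psmb10 went the other way from the standard sites. It read 5.93, 5.86 and 5.70 log2 CPM in shCtrl and 5.17, 5.31 and 4.88 in shPTN. No shPTN value reached the lowest shCtrl value, and the log2 fold change was −0.71 ± 0.13 SE (limma with Benjamini-Hochberg, adjusted p = 0.00164). The highest adjusted p without any 1 library was 0.01, without shPTN replicate 3.

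Of the ATPases, which unfold substrates and open the gate of the core, 6 of 6 rose, with a median of 0.54 and a range of 0.35 to 0.69, also without any 1 library. Under the same 3 corrections 2, 2 and 6 of them passed as higher, Psmc2 and Psmc6 each time. Psmc2 read 8.10, 8.15 and 8.06 in shCtrl and 8.78, 8.82 and 8.78 in shPTN. That separation of groups is wide beside the spread within them (log2 0.69 ± 0.08 SE, limma, adjusted p = 0.000138). Psmc6 read 7.75, 7.59 and 7.54 against 8.25, 8.27 and 8.30, without overlap (log2 0.65 ± 0.09 SE, limma, adjusted p = 0.00033). The ubiquitin receptor Psmd4 rose with them, from 8.08, 8.13 and 7.95 to 8.71, 8.75 and 8.61, with no overlap and an adjusted p of 0.000346 (limma, log2 0.64). The large scaffold subunits of the base, Psmd1 and Psmd2, each had a log2 fold change of 0.03 and did not pass, though both were higher under the correction on coding length. Psmd4 missed the threshold under that on the representative mRNA.

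In the lid, which carries the deubiquitinase Psmd14, none of the 8 subunits passed as higher in limma (3 had an unadjusted p under 0.05), and the median log2 fold change was 0.20. Without shCtrl replicate 1, 4 of them passed as higher, and without shPTN replicate 1, 1 did. Psmd3 was lower: 8.96, 8.91 and 8.90 in shCtrl and 8.67, 8.60 and 8.58 in shPTN. Its groups did not overlap (log2 −0.31, limma, adjusted p = 0.0106), and without shPTN replicate 3 the adjusted p was 0.0567 (log2 −0.29). Under the corrections Psmd3 was lower each time, Psmd7 was lower over all exons and on the representative mRNA, and Psmd6 and Psmd12 were higher on coding length.

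Activators split. Psme1, which with Psme2 forms the PA28 ring that interferon induces, read 5.85, 6.60 and 6.02 in shCtrl and 6.84, 7.18 and 6.94 in shPTN. The spread of shCtrl was wide and its highest value stayed under the lowest shPTN value (log2 0.83 ± 0.19 SE, limma, adjusted p = 0.00622). Psme2 read 5.97, 6.10 and 5.82 against 6.03, 5.90 and 6.14, overlapping groups with a log2 fold change of 0.06 (limma, adjusted p = 0.684). Psme3, the nuclear PA28 subunit, fell from 8.80, 8.38 and 8.55 to 8.18, 8.11 and 8.21, without overlap (log2 −0.41 ± 0.11 SE, limma, adjusted p = 0.0113). Psme4, the activator PA200, read 7.88, 7.85 and 7.90 against 7.53, 7.52 and 7.70, also without overlap (log2 −0.29, limma, adjusted p = 0.0215). Without shPTN replicate 2 neither passed (adjusted p = 0.0574 for Psme3 and 0.0937 for Psme4), and 2 members in all were lower. Psme4 also missed it without shCtrl replicate 3 (0.0747) and without shPTN replicate 1 (0.0702). Under the corrections for length Psme3 was lower each time and Psme4 under none of the 3, while Psme1 missed the threshold on the representative mRNA.

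Assembly factors rose in part. Psmg3, a chaperone of alpha-ring assembly, read 3.30, 3.38 and 2.93 in shCtrl and 3.95, 4.23 and 3.98 in shPTN, without overlap (log2 0.85, limma, adjusted p = 0.00341), while Psmg1, Psmg2 and Psmg4 had changes of 0.28, 0.18 and 0.26 that did not pass. Of the chaperones of the cap, Psmd9 rose (log2 0.48, limma, adjusted p = 0.00391), while Psmd10 (0.18) and Psmd5 (−0.25) did not pass, and neither did Psmf1 (−0.02). Psmg3 passed under the correction over all exons alone, Psmd9 under that and the one on the representative mRNA, and Psmg4 was lower under the latter (log2 −0.43, limma, adjusted p = 0.0351).

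**Figure D2:**
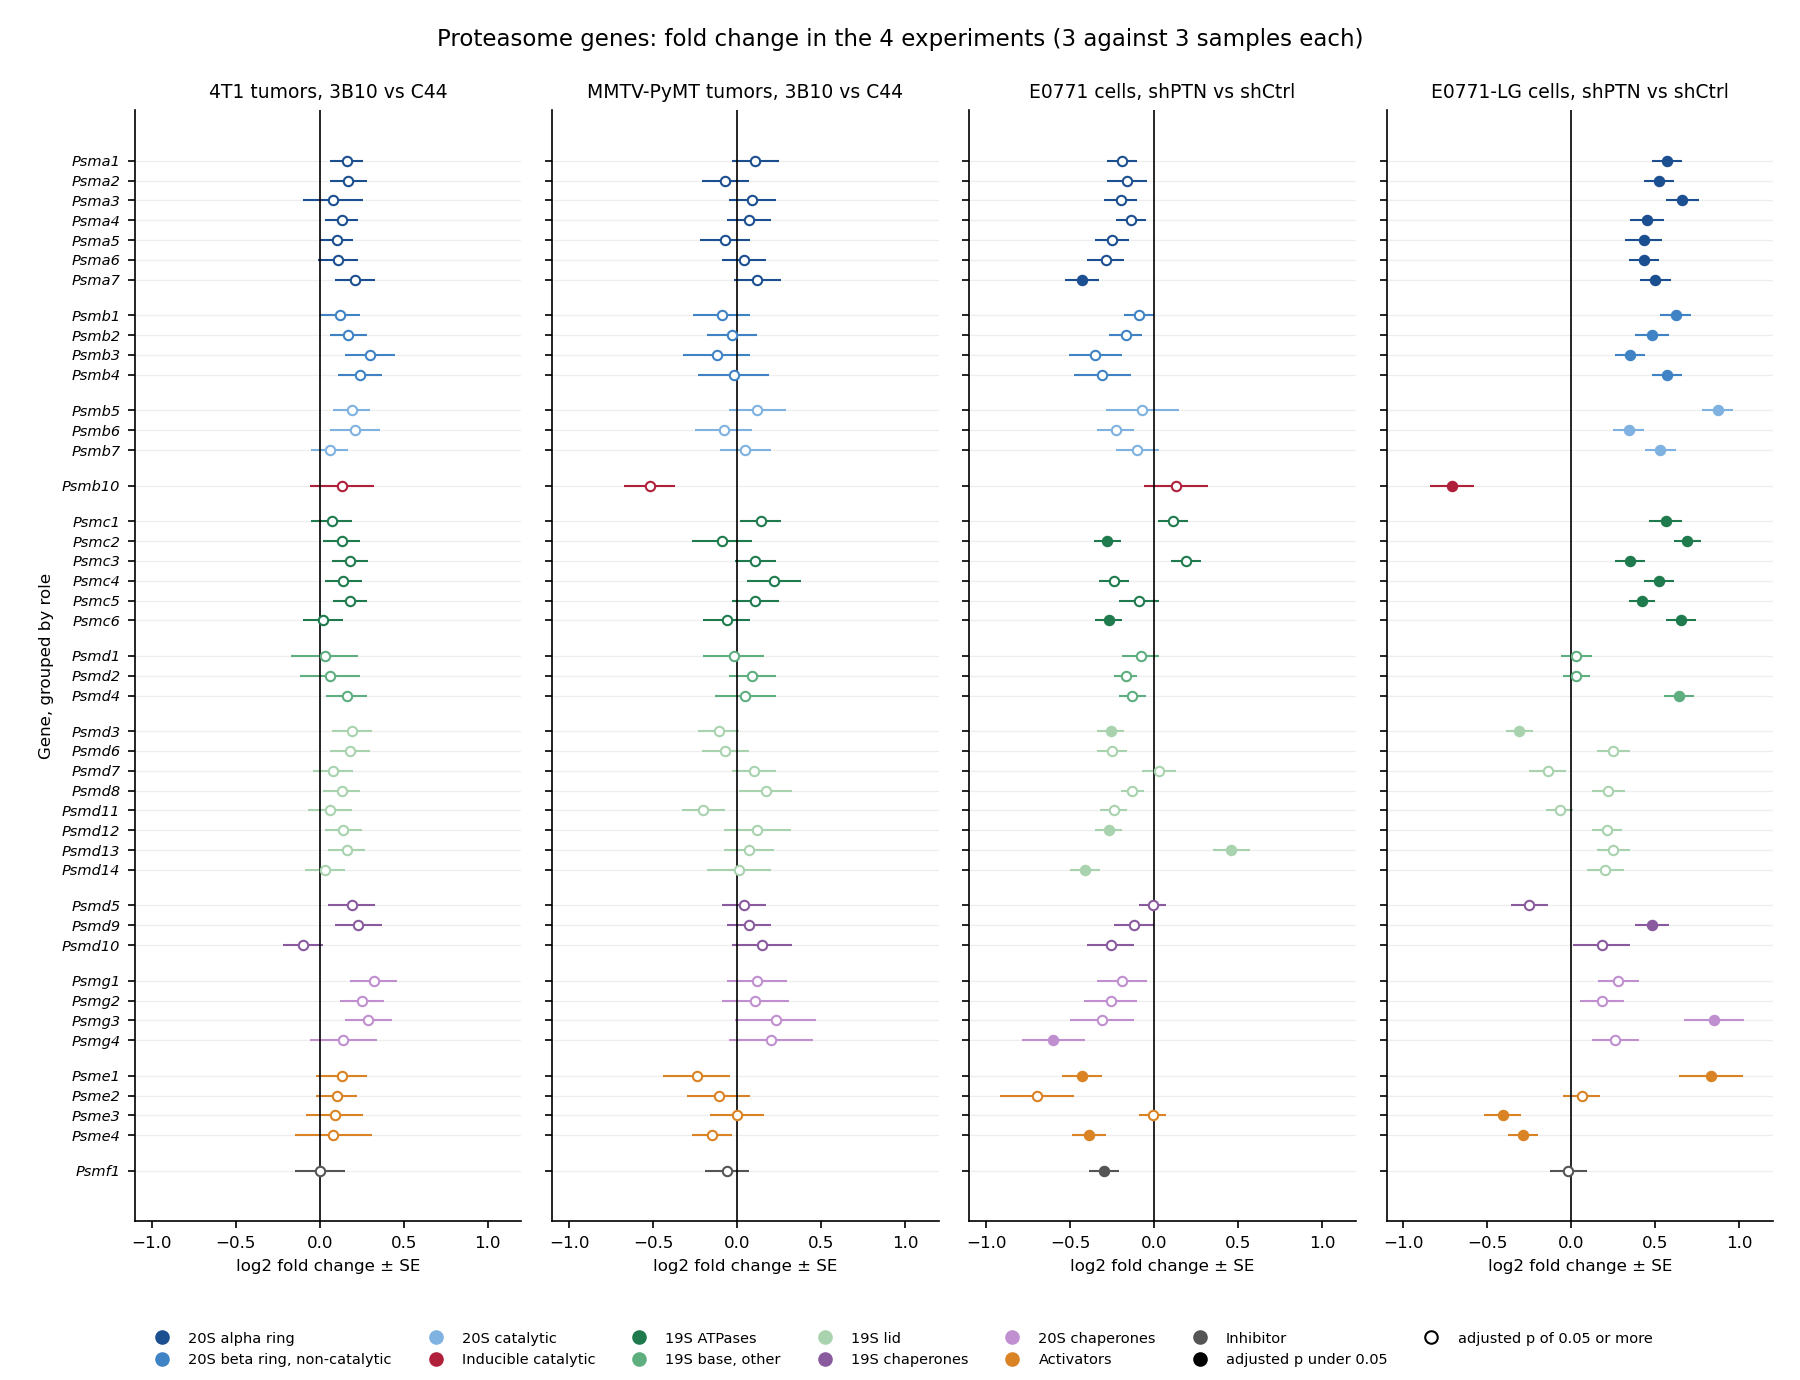
Log2 fold change of each of the 44 members, by role, in the 4 experiments, with the members past an adjusted p of 0.05 filled. In E0771-LG 24 members are called higher (all genes tested 24.3%), among them all 14 core subunits (0.34 to 0.87) and 6 of 6 ATPases. Another 4 are called lower (all genes 22.1%). Under the 3 corrections for GC content and length, 6, 4 and 12 of the core subunits and 2, 2 and 6 of the ATPases were higher. In E0771, 1 member is called higher (all genes 8.89%) and 10 lower (all genes 11.7%), with 0 to 17 lower without 1 library. In the tumor experiments none is called, where 0% of all genes are.

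**Figure D3:**
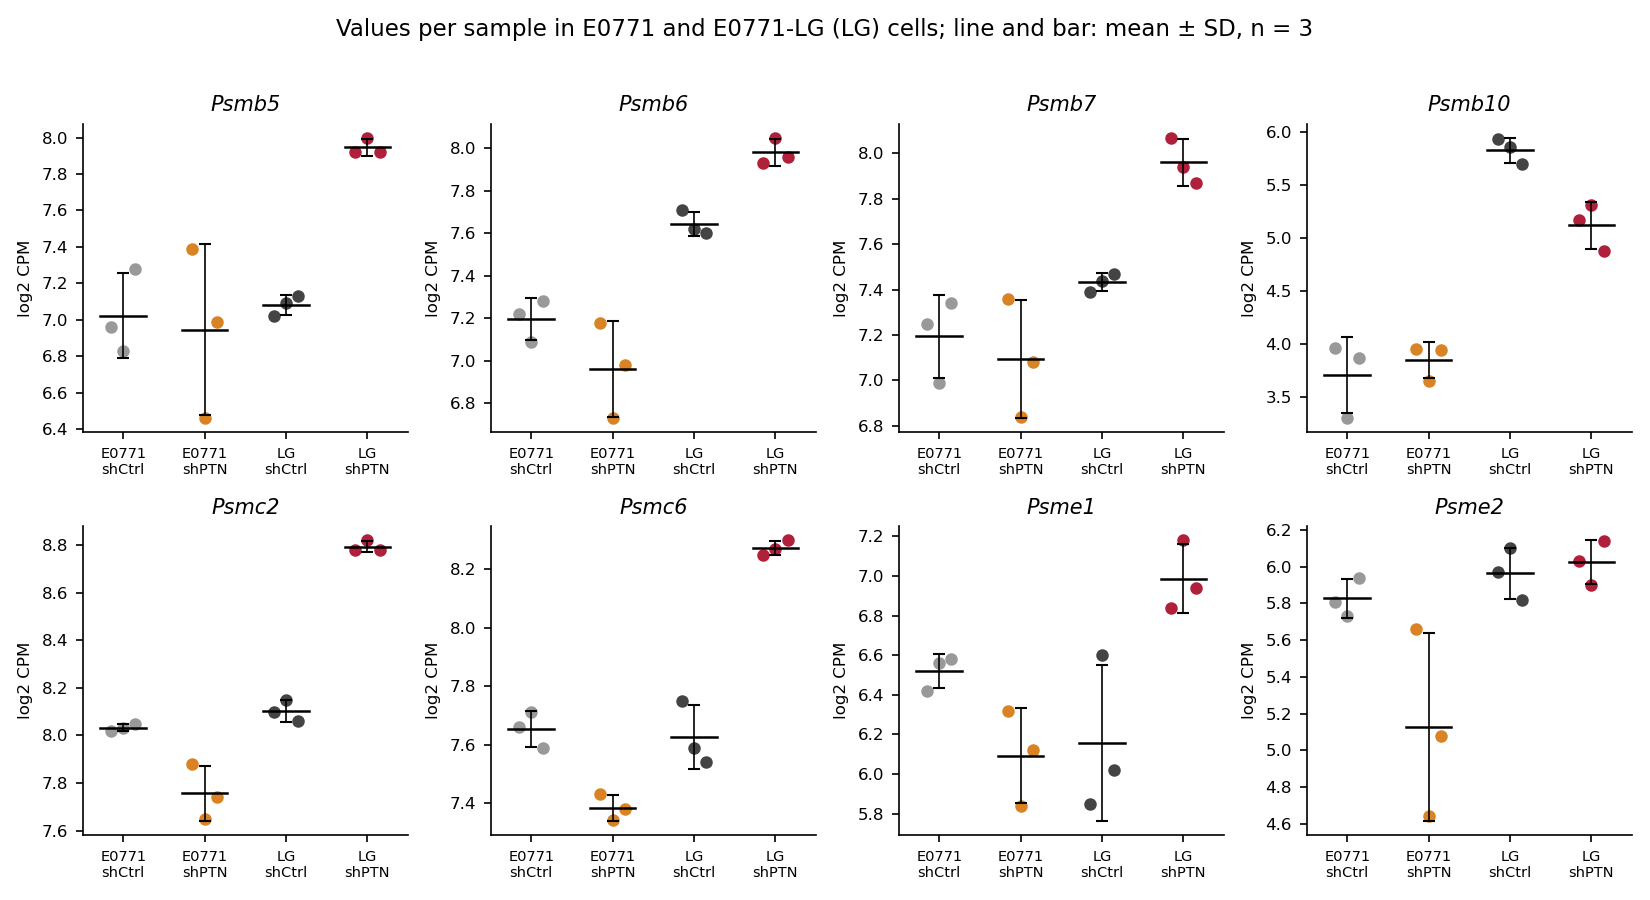
Log2 CPM of selected members in each library of the E0771 and E0771-LG cells, with a line at each group's mean. Psmb5 in E0771-LG stands between 7.02 and 7.13 in shCtrl and between 7.92 and 8.0 in shPTN, while Psmb10 goes from 5.70 to 5.93 down to 4.88 to 5.31.

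Fold changes in E0771-LG also moved with the length of the mRNA, over the whole table. All genes tested with an mRNA under 1 kb (615 genes) had a median log2 fold change of 0.60, those of 1 to 1.5 kb (932) 0.42, those of 1.5 to 2 kb (1167) 0.30, those of 2 to 3 kb (2366) 0.11, and those over 3 kb (5325) −0.19. Proteasome genes are short, with a median mRNA of 1435 bp and of 1162.5 bp for the 14 core subunits, against 2972 bp over the 12091 genes. In the same 5 length classes the members' medians were 0.42 (8 members), 0.43 (15), 0.25 (9), 0.25 (8) and −0.13 (4). Thus 2 of 8, 9 of 15, 4 of 9, 4 of 8 and 2 of 4 members stood above the median of all genes of like length. In the class of 1 to 1.5 kb, 6 of 6 core subunits did, and under 1 kb 1 of 5. The Spearman correlation of fold change with mRNA length was −0.48 over 10405 genes and −0.35 over the 44 members, with length over all exons −0.40 and −0.14, and with coding length −0.32 (10222 genes) and −0.32, as a description only, since genes are no independent replicates.

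The trend was present in each E0771-LG library. As the slope of a library's deviation from the mean of its experiment on log2 mRNA length, it was 0.08, 0.15 and 0.18 in the shCtrl libraries and −0.11, −0.19 and −0.11 in the shPTN libraries, so the groups did not overlap. Single libraries had slopes in the other experiments too, with overlapping groups. In E0771 they were −0.02, 0.07 and −0.03 in shCtrl and −0.13, 0.11 and 0.01 in shPTN. In 4T1 they were 0.05, 0.10 and −0.09 with C44 and −0.12, 0.04 and 0.02 with 3B10. MMTV-PyMT tumors had −0.13, 0.05 and 0.10 with C44 and 0.01, 0.01 and −0.03 with 3B10. The part of the E0771-LG trend in the members' result was not tested beyond the 3 corrections that follow, each of which removes a smooth trend on GC content and length from every library.

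With length taken over all annotated exons, 12 members were higher (18% of all genes tested) and 5 lower (21.8%), with a median of 0.06. All 12 were among the 24, and they were Psma1, Psma2, Psma3, Psmb1, Psmb5, Psmb7, Psmc2, Psmc6, Psmd4, Psmd9, Psmg3 and Psme1. With the length of 1 representative mRNA a gene, a choice made after seeing the data, 7 members were higher (16.1%) and 7 lower (20%), with a median of 0.02. Those higher were Psma2, Psma3, Psmb1, Psmb5, Psmc2, Psmc6 and Psmd9. With the coding length, likewise chosen after seeing the data, 24 were higher (19.9%) and 3 lower (22.6%), with a median of 0.28, and 20 of these 24 were among the 24 of the uncorrected test. Psmd1, Psmd2, Psmd6 and Psmd12 were gained there, and Psmb3, Psmb6, Psmd9 and Psmg3 lost. Psmb6 was reversed under the first correction, at −0.02, and under the second, at −0.28 (limma, adjusted p = 0.0409), and had 0.05 under the last. Psme2 was reversed as well, to −0.33 and −0.42 under the first pair, where it was called lower, and under the second Psme4 to 0.04 and Psmg4 to −0.43. Psma2, Psma3, Psmb1, Psmb5, Psmc2 and Psmc6 were higher, and Psmb10, Psmd3 and Psme3 lower, under each of the 3. The representative mRNAs of Psma2 and Psma3, of 2911 and 2846 bp, are the longest of the core, and which 3′ ends these cells use was not measured.

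**Figure D4:**
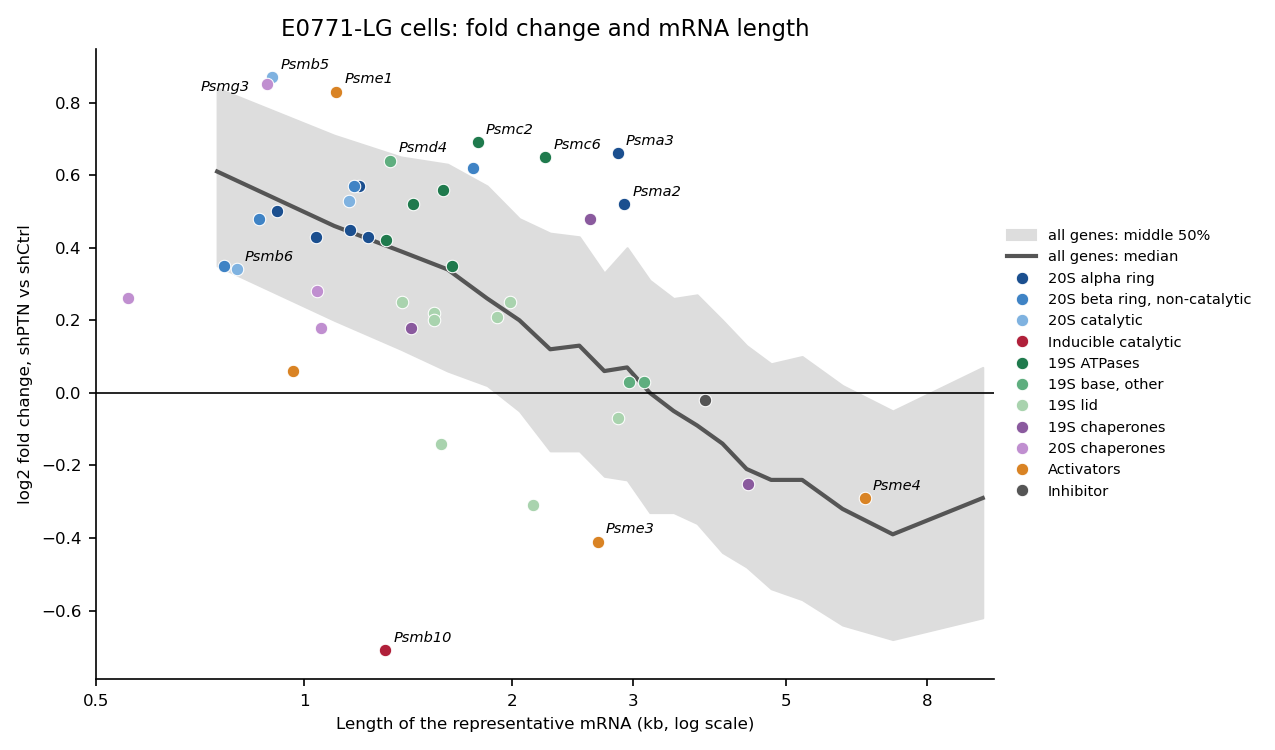
Log2 fold change of shPTN over shCtrl in E0771-LG against mRNA length (bp, log axis), for all genes tested as the median and the middle 50% of 20 groups of like length, and for the 44 members as points. The median of all genes falls from 0.61 in the group of the shortest mRNAs (median 748 bp) to −0.39 at 7130.5 bp, and is −0.29 in the longest (9626 bp). Psmb5 (0.87) lies above it and Psmb10 (−0.71) below.

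Partners of the proteasome were taken as 27 genes of a list of cofactors, ubiquitin genes, shuttle factors and regulators. In E0771-LG 7 of them were higher, where 24.3% of all genes tested were, and 8 lower, where 22.1% were (limma, adjusted p under 0.05). Pomp, the maturation factor of the core, rose by 0.69 on the log2 scale, from 6.97, 6.95 and 7.04 to 7.69, 7.75 and 7.59, with no overlap. Ubb, a ubiquitin gene, rose as well, with a log2 fold change of 0.47, as did the receptor Adrm1 (0.43) and the small lid subunit Sem1 (0.56). On the other side were the cap's deubiquitinase Usp14 (−0.75), the ubiquitin ligase Ube3c (−0.69), Nploc4 (−0.96), a cofactor of the segregase Vcp, and Ddi2 (−0.63), the protease that activates Nfe2l1. Nfe2l1 itself, the factor that induces proteasome genes when the machine is blocked, had a change of −0.20 that did not pass (limma, adjusted p = 0.458), though it did without shCtrl replicate 1 (−0.44, adjusted p = 0.00567). Of 8 interferon-inducible antigen-processing genes, 2 were higher and 1 lower. Tap2 (0.93) passed without any 1 library, while B2m (0.42) missed the threshold without 4 of the 6, with an adjusted p of 0.161 without shPTN replicate 2, and Tapbp (−0.71) also without 4, with 0.0926 without shPTN replicate 1. B2m was called without shCtrl replicate 2 and shPTN replicate 1 only, and Tapbp without shCtrl replicates 1 and 2 only.

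Markers of other cell types were measured in the E0771-LG cultures as well. Of the epithelial markers 3 of 3 tested rose, and their summed level went from 158, 204 and 164 CPM to 424, 565 and 516, with Krt8 the most abundant. Krt19 was at 0 in the shCtrl libraries, Krt5 in 5 of the 6 libraries and Cdh1 in shCtrl replicates 1 and 2. Among the shCtrl libraries of both lines 2 epithelial markers passed the filter. At least 1 of the 3 was thus tested only through its shPTN values, and its rise follows in part from the filter. Fibroblast markers summed to 92, 145 and 107 CPM in shCtrl and 58.3, 66.2 and 73.4 in shPTN (1 of 6 higher, 2 lower, Pdgfra the most abundant). Only 4 of these 6 passed the filter among the shCtrl libraries of both lines. The rest were tested only with their shPTN values counted, and a rise among them follows in part from the filter. Leukocyte markers summed to 122, 130 and 122 and to 86.3, 108 and 110 (1 of 5 higher, 1 lower, Laptm5 the most abundant, S100a9 and Adgre1 at 0 throughout). Fabp4, the 1 adipocyte marker in the table, fell from 10.9, 18.3 and 12 CPM to 1.18, 3.93 and 3.04 (log2 −2.46, limma, adjusted p = 0.0017). Skeletal muscle markers summed to 5.32, 3.52 and 2.58 and to 1.99, 2.88 and 2.58, with Acta1 the most abundant in 5 of the 6 libraries, Myh4 at 0 in all and Tnnt3 in 5 (of 2 tested, Acta1 was lower). Endothelial markers summed to 0.867, 2.35 and 2.26 and to 3.31, 2.88 and 2.01, with Cdh5 or Pecam1 the most abundant and none at 0 (0 of 1 called in limma, 0 at an unadjusted p under 0.05). The part of these markers in the result for the members was not tested.

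In the parental E0771 cells, Ptn read 2.90, 2.18 and 2.28 log2 CPM in shCtrl and −0.63, 0.25 and 0.53 in shPTN, without overlap (log2 −2.40 ± 0.37 SE, limma, adjusted p = 0.00159). Here 1 of the 44 members was higher, where 8.89% of the 10394 genes tested were, and 10 were lower, where 11.7% were. The median log2 fold change of the members was −0.21, against −0.03 over all genes, and 39 of the 44 were negative. These calls were few and unsteady: without shCtrl replicate 1, 2 or 3 the lower count was 4, 2 or 0, and without shPTN replicate 1, 2 or 3 it was 17, 5 or 0. It was 6 with median-of-ratios scaling (10.3% of all genes) and 3 when all 24 samples were fitted together (5.33%). Under the corrections for GC content and length it was 14 over all exons (14.1%), 14 on the representative mRNA (15.3%) and 12 on coding length (14.6%), the last pair chosen after seeing the data. Lower under each of the 3 were Psma7, Psmd3, Psmd14, Psmg4, Psme1, Psme4 and Psmf1, called without a correction too, and Psmb3, Psmb4, Psmb6, Psmc4 and Psme2, which were not. Psma5 was lower under the first pair, and Psmd13 was higher under all 3.

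Of the core, 14 of 14 subunits had negative changes, with a median of −0.20, and 1 passed: Psma7, an alpha-ring subunit, which read 8.45, 8.42 and 8.57 in shCtrl and 8.28, 7.94 and 7.94 in shPTN. The groups did not overlap (log2 −0.43 ± 0.10 SE, limma, adjusted p = 0.0142), and the adjusted p was 0.0714 without shCtrl replicate 3 and 0.0806 without shPTN replicate 3. Without shPTN replicate 1, 8 core subunits passed. Psmb5 read 6.96, 6.83 and 7.28 against 7.39, 6.46 and 6.99, with overlap (log2 −0.07, limma, adjusted p = 0.849). For Psmb6 the values were 7.22, 7.09 and 7.28 against 7.18, 6.73 and 6.98 (log2 −0.23), for Psmb7 7.25, 6.99 and 7.34 against 7.36, 6.84 and 7.08 (−0.10), and for Psmb10 3.96, 3.30 and 3.87 against 3.95, 3.65 and 3.94 (0.13). The groups of all 3 overlapped and none passed, though without shPTN replicate 1 Psmb6 did (log2 −0.34, limma, adjusted p = 0.0358).

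In the cap, the deubiquitinase Psmd14 fell, from 7.35, 7.31 and 7.37 to 7.09, 6.94 and 6.79. The groups did not overlap (log2 −0.41 ± 0.09 SE, limma, adjusted p = 0.0107), with 0.0529 without shCtrl replicate 3 and 0.0642 without shPTN replicate 3. Psmd13, another lid subunit, was the member called higher, with 6.21, 6.25 and 6.32 against 6.98, 6.62 and 6.56. Those groups stand apart too (log2 0.46 ± 0.11 SE, limma, adjusted p = 0.0168), and the adjusted p was 0.0507 without shCtrl replicate 1 and 0.0569 without shCtrl replicate 2. The ATPases Psmc2 (−0.28) and Psmc6 (−0.27), the lid subunits Psmd3 (−0.26) and Psmd12 (−0.27), the chaperone Psmg4 (−0.60) and Psmf1 (−0.30) had adjusted p from 0.0329 to 0.0463 (limma). Each missed the threshold in 5 of the 6 fits that left out 1 library, with the highest adjusted p at 0.136, 0.12, 0.125, 0.153, 0.129 and 0.176 in that order. For Psmc2, Psmc6, Psmd12 and Psmg4 the exception was shPTN replicate 1, for Psmd3 and Psmf1 shPTN replicate 2. Under the corrections for length Psmd3, Psmg4 and Psmf1 were lower each time, Psmc2 on the representative mRNA only, Psmd12 over all exons only and Psmc6 under none of the 3.

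Activators had the lowest median of any role in E0771, −0.41. Psme4 read 7.92, 8.10 and 8.0 in shCtrl and 7.45, 7.76 and 7.64 in shPTN, without overlap (log2 −0.39 ± 0.10 SE, limma, adjusted p = 0.0157). It missed the threshold without shCtrl replicate 2 (0.0721), shCtrl replicate 3 (0.0592) or shPTN replicate 3 (0.0582). Psme1 went from 6.42, 6.56 and 6.58 to 6.32, 5.84 and 6.12, where no value of one group reached the other (log2 −0.43 ± 0.12 SE, limma, adjusted p = 0.0302). Its adjusted p was 0.0985 without shCtrl replicate 2, 0.113 without shCtrl replicate 3, 0.0621 without shPTN replicate 2 and 0.0874 without shPTN replicate 3. Psme2 read 5.81, 5.73 and 5.94 against 5.66, 4.64 and 5.08, a wide spread in shPTN, and its change of −0.70 ± 0.22 SE just missed the threshold (limma, adjusted p = 0.0503). Without shPTN replicate 1 it passed, at −0.96 (adjusted p = 0.000855).

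Of the 27 partners, none was higher in E0771 (limma, 0 at an unadjusted p under 0.05) and 3 were lower, where 11.7% of all genes were: Ubqln2 (−0.44), Usp14 (−0.33) and Faf2 (−0.28). Ubqln2 passed without any 1 library, Usp14 missed without shCtrl replicate 2 (0.0596) or 3 (0.0662), and Faf2 passed without shPTN replicate 2 only (highest adjusted p 0.152). The lower count was 1 without shCtrl replicate 2 or 3 and 7 without shPTN replicate 2. Of the antigen-processing genes 1 was higher, Psmb8 (0.44), and none lower. Psmb8 passed without shPTN replicate 2 only, with 0.141 without shPTN replicate 3. Another 3 passed in a single fit each: Tapbp lower without shCtrl replicate 1 (0.0406), Tap1 lower without shPTN replicate 1 (0.0374) and B2m higher without shPTN replicate 2 (0.0108). Fibroblast markers rose in these cells, 5 of 5 tested, from a summed 74.8, 101 and 86.3 CPM to 331, 293 and 330, the most abundant being Pdgfra in shCtrl and Col3a1 in shPTN, with Dcn at 0 in shPTN replicate 2. Among the shCtrl libraries of both lines 4 fibroblast markers passed the filter. At least 1 of the 5 was thus tested only through its shPTN values, and its rise follows in part from the filter. Leukocyte markers summed to 44.5, 60.5 and 50.6 and to 80.9, 57.6 and 68.7 (2 of 5 higher; Itgam, Cd3e and S100a9 at 0 throughout). Krt8 was the most abundant epithelial marker, in sums of 99.3, 114 and 107 against 115, 98.9 and 108 (0 of 2 called in limma, 1 at an unadjusted p under 0.05). Krt19 and Krt5 were at 0 in all 6 libraries, Krt14 in the shPTN libraries and Krt18 in shPTN replicate 3. Fabp4 read 1.16, 1.18 and 1.99 CPM against 2.33, 0.277 and 2.11. Skeletal muscle markers summed to 1.51, 1.57 and 3.13 against 1.97, 2.05 and 2.18, with Mylpf the most abundant except in shPTN replicate 2 (Acta1), Myh4 at 0 in all 6 libraries and Tnnt3 in 4, and endothelial markers to 1.51, 2.2 and 1.5 against 2.69, 1.83 and 1.41, with Kdr or Cdh5. Fabp4 and Mylpf, tested of these, were not called (limma, 0 at an unadjusted p under 0.05). The part of these markers in the members' result was not tested.

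Whether the lines differ in their response was tested by the interaction term, the E0771-LG effect minus the E0771 effect. Of the 44 members, 29 were higher in that difference, where 18.8% of the 10223 genes tested were, and 2 were lower, where 16% were, with a median of 0.59 against 0.08 over all genes. Under the 3 corrections for GC content and length, 15, 13 and 27 members were higher (15.5%, 14.4% and 17.3% of all genes). The medians were then 0.24, 0.19 and 0.43, and 7, 5 and 14 of the 14 core subunits were higher. Each effect uses its own shCtrl group, and the comparison of the shCtrl groups further on uses both again. Without a correction all 14 core subunits passed (0.57 to 0.94, median 0.70), also without any 1 library. So did 5 of 6 ATPases, with Psmc3 (0.16) the exception, and without E0771 shCtrl replicate 3 Psmc1 missed the threshold as well (0.42, adjusted p = 0.0521).

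Side by side, Psmb5 had 0.87 in E0771-LG and −0.07 in E0771, a difference of 0.94 ± 0.26 SE (limma with Benjamini-Hochberg, adjusted p = 0.0137). Psmc2 had 0.69 and −0.28, a difference of 0.97 ± 0.11 SE (limma, adjusted p = 3.58e-05), and Psmc6 0.65 and −0.27, a difference of 0.91 (limma, adjusted p = 6.53e-05). For Psma7 the effects were 0.50 and −0.43, for Psmd4 0.64 and −0.13, with differences of 0.93 and 0.77 (limma, adjusted p = 0.000298 and 0.000371). Psme1 had the widest gap, 0.83 and −0.43, a difference of 1.25 ± 0.24 SE (limma, adjusted p = 0.00178).

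Psmb10 differed in the other direction, with −0.71 in E0771-LG and 0.13 in E0771 (difference −0.84 ± 0.24 SE, limma, adjusted p = 0.0152). Psme3 had −0.41 and −0.01, and its difference of −0.40 (limma, adjusted p = 0.0404) missed the threshold in 9 of the 12 fits that left out 1 library, with 0.0961 without E0771 shCtrl replicate 3. It passed without E0771 shCtrl replicate 1, E0771 shPTN replicate 1 or E0771-LG shCtrl replicate 2 only, so the lower count was 1 in the other fits. Psme2, with 0.06 and −0.70, had a difference of 0.76 (limma, adjusted p = 0.0398) that passed without E0771 shPTN replicate 1 or E0771-LG shCtrl replicate 2 only, with 0.0909 without E0771 shCtrl replicate 3. In the lid 4 of 8 passed, Psmd6 (0.49), Psmd8 (0.35), Psmd12 (0.48) and Psmd14 (0.60), and Psmd8 did so without E0771-LG shCtrl replicate 1 or shPTN replicate 1 only, with 0.127 without E0771-LG shPTN replicate 2. Of the 27 partners 6 were higher, where 18.8% of all genes were, and 4 lower, where 16% were. Of those called, Pomp had the largest rise (0.76) and Nploc4 the largest fall (−0.82). Without E0771 shCtrl replicate 1 or shPTN replicate 3 the higher count was 3, and without E0771 shCtrl replicate 3 or shPTN replicate 3 the lower count was 2. Of the markers whose sums are given above, 4 of 5 fibroblast markers were lower in the difference, 1 of 2 epithelial markers higher, and of 5 leukocyte markers 1 higher and 1 lower. Their part in it was not tested.

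A length trend is present in this difference too, with a Spearman correlation of −0.42 over 10223 genes and −0.52 over the members on the representative mRNA, −0.33 and −0.23 over all exons, and −0.27 (10043 genes) and −0.47 on coding length. Under the correction over all exons 15 members were higher (15.5% of all genes) and 2 lower (17.9%), under that on the representative mRNA 13 (14.4%) and 4 (17.2%), and under that on coding length 27 (17.3%) and 2 (19.2%). Of the 14 core subunits 7, 5 and 14 were higher in turn, with medians of 0.42, 0.26 and 0.49, and of the 6 ATPases 3, 3 and 5. Psmb5 kept a positive difference of 0.35 under each of the first pair, where it missed the threshold (limma, adjusted p = 0.0542 and 0.0623). Psmb7 also missed it under both, with 0.42 (adjusted p = 0.0607) and 0.17 (0.318), as did Psmb6, with 0.22 and a reversed −0.04. Higher under each of the 3 were Psma2, Psma3, Psma7, Psmb1, Psmb4, Psmc2, Psmc4, Psmc6, Psmd4, Psmg3 and Psme1, and lower Psmb10 and Psme3. In the lid Psmd14 passed over all exons and on coding length, Psmd6 and Psmd12 on coding length only and Psmd8 under none, and Psme2 passed on coding length only. On the representative mRNA Psmd7 and Psmd13 were lower and Psme4 higher, none of them called without a correction.

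**Figure D5:**
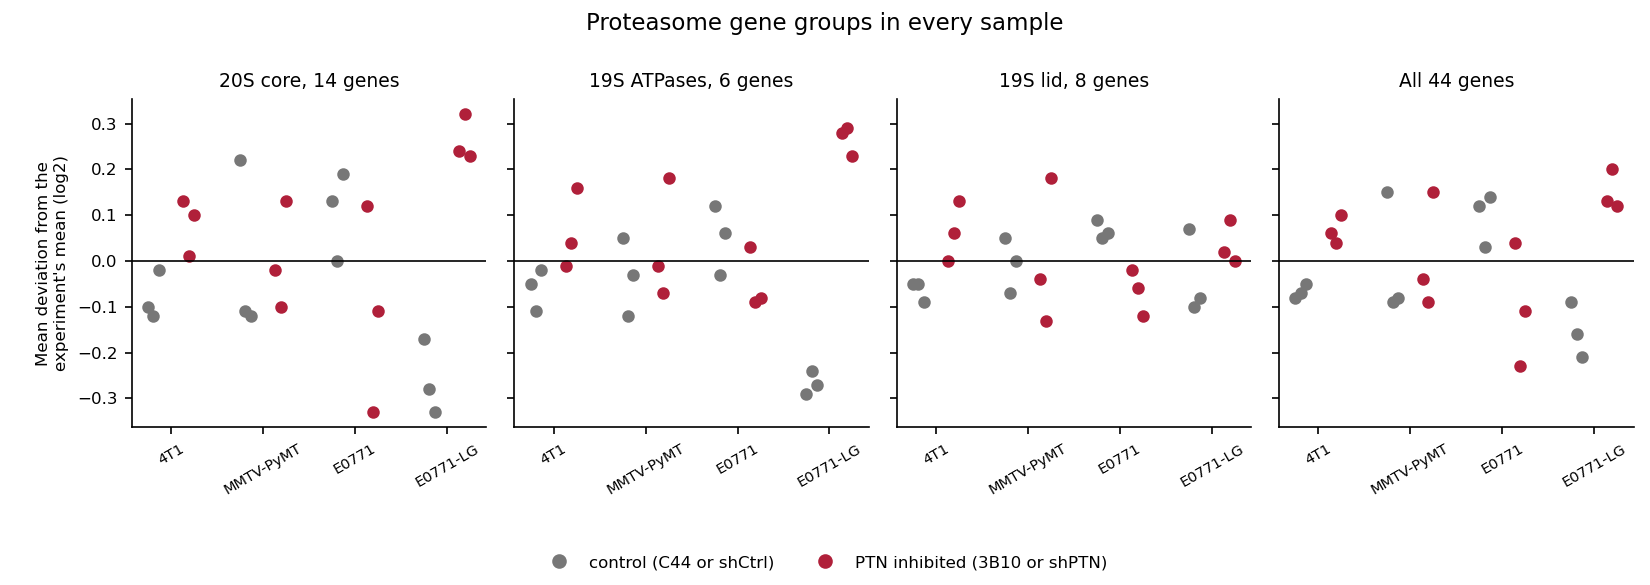
Mean deviation of the members of a role from their mean over the 6 libraries of an experiment (log2), in each library of the 4 experiments. For the 14 core subunits in E0771-LG the shCtrl libraries stand at −0.17, −0.28 and −0.33 and the shPTN libraries at 0.24, 0.32 and 0.23, and for the lid the same groups overlap.

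The control lines themselves differed in proteasome genes. Between E0771-LG shCtrl and E0771 shCtrl, groups that also enter the effects above, 12 members were higher in E0771-LG, where 19.2% of the 10411 genes tested were, and 2 were lower, where 35.3% were. The members' median was 0.02, while the median of all genes was −0.15, a shift that median-of-ratios scaling took to 0.00 and quantile normalization to 0.01. As deposited, 35.3% of all called genes were higher, with 50.2% (2854 higher and 2828 lower) and 51.5% (2830 and 2663) under those scalings, so each difference here is to be read against that shift. Markers of other cell types differed between these lines too, in the shCtrl sums given above. In E0771-LG 2 of 2 epithelial markers tested were higher, Krt8 (0.69) and Epcam (0.95). Of 5 leukocyte markers Laptm5 (3.82) and Itgb2 (0.75) were higher and Cd68 (−3.24) and Coro1a (−1.65) lower, of 4 fibroblast markers Pdgfrb (1.49) and Pdgfra (1.10) higher and Col1a1 (−1.03) and Col3a1 (−2.15) lower, and of 2 muscle markers Acta1 (3.82) higher and Mylpf (−1.71) lower. Both muscle genes lay near the filter, which Acta1 passed only with its E0771-LG values counted. Its direction follows in part from the filter, and that of Mylpf may too. Fabp4 was higher by 3.24 (limma, adjusted p = 2.36e-05). Their part in the members' difference was not tested.

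Psmb10 stood out: 3.96, 3.30 and 3.87 log2 CPM in E0771 and 5.93, 5.86 and 5.70 in E0771-LG. The lowest E0771-LG value is above every E0771 value, and the 4.35-fold difference (log2 2.12 ± 0.18 SE) had an adjusted p of 1.12e-05 in limma with Benjamini-Hochberg. The interferon-inducible Psmb9 went the other way, at 3.97, 4.31 and 4.58 in E0771 and 1.33, 2.22 and 1.12 in E0771-LG, without overlap (log2 −2.73 ± 0.30 SE, limma, adjusted p = 5.67e-05). Of the 8 antigen-processing genes 6 were lower and 1, Irf1 (0.51), higher. Psmb9, Tap2 (−1.11) and Nlrc5 (−1.15) passed without any 1 library, whereas Psmb8 (−0.55), Tap1 (−0.99), B2m (−0.34) and Irf1 did not. Their highest adjusted p were 0.153, 0.136, 0.133 and 0.112. Psmb8 and B2m passed without E0771-LG shCtrl replicate 2 only, Irf1 without E0771-LG shCtrl replicate 1 only, and Tap1 without replicate 2 of either line only. The lower count was 3 without replicate 1 or 3 of either line and 4 without E0771 shCtrl replicate 2. It was 7 without E0771-LG shCtrl replicate 2, where Tapbp, not called in the full fit, was lower too.

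In the lid 6 of 8 subunits were higher in E0771-LG. Psmd13 read 6.21, 6.25 and 6.32 in E0771 and 7.14, 6.89 and 6.92 in E0771-LG (log2 0.72 ± 0.10 SE, limma, adjusted p = 0.000253), and Psmd3 8.38, 8.24 and 8.31 against 8.96, 8.91 and 8.90 (log2 0.61, limma, adjusted p = 0.00025). Neither pair of groups overlapped. Psmd7 (0.65), Psmd12 (0.47), Psmd11 (0.41) and Psmd6 (0.38) were the others, and Psmd6 missed the threshold without E0771 shCtrl replicate 2 (0.33, adjusted p = 0.0503). Among activators, Psme3 was higher (0.75, limma, adjusted p = 0.000504), and of the ATPases 1 of 6, Psmc5 (0.61).

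The core was split between the lines. Psma2 read 7.68, 7.49 and 7.62 in E0771 and 8.30, 8.23 and 8.14 in E0771-LG, without overlap (log2 0.63 ± 0.09 SE, limma, adjusted p = 0.000347), and Psmb3 (0.55) and Psmb6 (0.45) were higher as well. Psma7 was lower, with 8.08, 8.01 and 7.97 in E0771-LG under all of 8.45, 8.42 and 8.57 in E0771 (log2 −0.46, limma, adjusted p = 0.0016). Psma3 was the other lower member, with 7.80, 7.50 and 7.50 against 7.98, 7.84 and 7.86 (log2 −0.29, limma, adjusted p = 0.0385). It passed without E0771-LG shCtrl replicate 1 only and reached 0.137 without E0771-LG shCtrl replicate 3, so that the lower count was 4 without E0771-LG shCtrl replicate 1 and 1 without E0771-LG shCtrl replicate 3 or any E0771 replicate. With median-of-ratios scaling Psma7 was lower alone, and under the correction over all exons neither was, while under the other 2 Psma7 was. Psmb5 (0.06), Psmb7 (0.24), Psme1 (−0.36) and Psme2 (0.14) did not pass, though Psme1 did without E0771-LG shCtrl replicate 2 (log2 −0.58, adjusted p = 0.0017). Psmb5 and Psmb7 were higher under the corrections on the representative mRNA (0.27 and 0.29, limma, adjusted p = 0.035 and 0.0246) and on coding length. Psmd5 and Psmd9 were gained as higher under all 3 and Psmg1 on coding length, and the 12 members higher without a correction stayed so under each. The median of all genes was 0.05 under each of the 3, against −0.15 without a correction. These gains are to be read against that shift, and the share of all genes higher was not counted there.

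The 4T1 tumors ask the same of an antibody in a whole tumor. No member passed in limma, where 0% of the 11467 genes tested did, and none of the 44 had an unadjusted p under 0.05, where 6.27% of all genes had. Yet 42 of the 44 had a positive log2 fold change (95.5%), against 51.6% of all genes, with a median of 0.14 against 0.01. The exceptions were Psmd10 (−0.10) and Psmf1, at 0.00. The median was 0.16 for the core, 0.13 for the 17 subunits of the cap and 0.27 for the chaperones of the core, and 16 members had groups that did not overlap, against 1295 of all genes tested.

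Psmg1, a chaperone of alpha-ring assembly, had the largest change. On the deposited log2 scale it read 5.11, 5.15 and 5.51 with C44 and 5.61, 5.58 and 5.57 with 3B10. The groups did not overlap, though C44 replicate 3 came close (log2 0.32 ± 0.14 SE, limma, adjusted p = 0.796). Psmb3 read 6.41, 6.54 and 6.83 against 7.06, 6.81 and 6.82, with overlap (log2 0.30 ± 0.15 SE, limma, adjusted p = 0.837). Of the catalytic subunits, Psmb5 read 6.36, 6.32 and 6.52 against 6.57, 6.62 and 6.60, without overlap (0.19). Psmb6 read 7.46, 7.56 and 7.79 against 8.05, 7.64 and 7.77 (0.21) and Psmb7 8.52, 8.61 and 8.66 against 8.67, 8.54 and 8.76 (0.06), both with overlap. Psmb10 had 8.65, 9.01 and 9.0 against 9.36, 8.96 and 8.73 (0.13), Psme1 8.62, 8.62 and 8.82 against 9.09, 8.73 and 8.63 (0.13), and Psme2 7.83, 7.86 and 7.87 against 8.14, 7.83 and 7.89 (0.10). In all 3 the highest library was 3B10 replicate 1 and the groups overlapped.

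Fold changes moved with mRNA length in 4T1 as well, with a Spearman correlation of −0.27 over 11467 genes and −0.46 over the members, −0.24 and −0.25 with length over all exons, and −0.23 (11087 genes) and −0.23 with coding length. The median of all genes went from 0.11 under 1 kb to −0.04 over 3 kb, and the members' from 0.20 to 0.05. Cell type markers moved with treatment in the same tumors, though none passed the adjusted threshold in limma. Epithelial markers were positive in 6 of 6 tested, 5 at an unadjusted p under 0.05, with sums of 3220, 3490 and 3470 on the deposited linear scale with C44 and 4970, 4510 and 5120 with 3B10, Krt18 being the most abundant and Krt5 at 0 in C44 replicate 1 and 3B10 replicate 3. Leukocyte markers were negative in 11 of 11, 7 at an unadjusted p under 0.05, with sums of 2440, 2280 and 2950 against 1940, 1730 and 1310, with S100a9 the most abundant except in C44 replicate 3, where S100a8 was, and with none at 0. Skeletal muscle markers summed to 12.7, 11.8 and 27.1 against 39.4, 167 and 254, with Tnnt3 or Acta1 the most abundant and Myh4 at 0 in C44 replicates 2 and 3, and 3 of 3 tested were higher at an unadjusted p under 0.05. Of these, Acta1 (mean log2 value 0.09 with C44 and 5.27 with 3B10) passed the filter only with its 3B10 values counted. Its direction follows in part from the filter, which Myh4 did not pass. The fibroblast sums, led by Col1a1, were 1270, 1740 and 1090 against 902, 3930 and 1600, and the endothelial sums, led by Cdh5, 75.6, 189 and 105 against 81.5, 145 and 64.8, while Fabp4, the 1 adipocyte marker in the table, read 9.58, 34.5 and 34.9 against 22.3, 28.2 and 18.5. Their part in the members' values was not tested. Of the 27 partners none passed (limma, 2 at an unadjusted p under 0.05, both higher), nor did any of the 8 antigen-processing genes (limma, 0 at an unadjusted p under 0.05), of which 6 were negative.

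In MMTV-PyMT tumors, no member passed in limma either, where 0% of the 11361 genes tested did, and 1 had an unadjusted p under 0.05, where 2.7% of all genes had. The median was 0.0473, against 0.0508 over all genes, with 26 of 44 positive (59.1%, all genes 61%), and 4 members did not overlap between groups, against 947 of all genes. Psmb10 was the one at an unadjusted p under 0.05: 6.02, 5.67 and 5.58 log2 CPM with C44 and 5.25, 5.26 and 5.21 with 3B10. All 3B10 tumors were below all C44 tumors (log2 −0.52 ± 0.15 SE, limma, adjusted p = 1). The median of the members was −0.0614 without 3B10 replicate 3 and 0.108 without 3B10 replicate 2, so its sign rests on single tumors.

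Other named members stayed within the spread of the tumors. Psmb5 read 6.28, 5.76 and 5.72 with C44 and 5.97, 6.05 and 6.11 with 3B10 (log2 0.12), Psmb6 7.75, 7.43 and 7.21 against 7.45, 7.24 and 7.46 (−0.08), and Psmb7 6.58, 6.49 and 6.66 against 6.56, 6.44 and 6.88 (0.05). Psme1 read 7.52, 6.94 and 6.79 against 6.73, 6.93 and 6.86 (−0.24) and Psme2 7.25, 6.64 and 6.75 against 6.58, 6.90 and 6.85 (−0.11). Among these 5 genes C44 replicate 1 was the highest C44 library except for Psmb7, and the groups overlapped in each. The remaining members without overlap were Psmc1 (0.14), Psmd3 (−0.11) and Psmd11 (−0.20). All 8 antigen-processing genes were negative, with a median of −0.39 and B2m at −0.88, Psmb8 at −0.41 and Psmb9 at −0.37, and none passed (limma, 0 at an unadjusted p under 0.05). Of the partners none passed (limma, 0 at an unadjusted p under 0.05). Leukocyte markers summed to 249, 264 and 184 CPM with C44 and 302, 202 and 181 with 3B10, with Csf1r or Laptm5 the most abundant, and epithelial markers to 5550, 5370 and 3720 against 4370, 4850 and 3850, with Krt8 or Epcam. Fibroblast markers were negative in 6 of 6, with sums of 2230, 3400 and 1180 against 2210, 1680 and 1700, led by Col1a1 or Col3a1. Skeletal muscle markers had a median of −0.52 and sums of 29.2, 11.6 and 7.19 against 9.02, 10.1 and 8.98 (Myh4, Acta1 or Mylpf the most abundant), endothelial markers sums of 99.5, 120 and 73.4 against 112, 119 and 81.9 (Pecam1 or Cdh5), and Fabp4 read 15.1, 15.7 and 4.9 against 29.3, 11.4 and 5.66. No marker passed (limma), and 1 had an unadjusted p under 0.05, Krt5 at 1.28. None of these markers was at 0 in these libraries, and their part in the members' values was not tested. Ptn had a log2 fold change of 0.50 ± 0.37 SE here (limma, adjusted p = 1) and was below the filter in 4T1, where its change was not tested.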

How the data were processed

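RNA sequencing of 24 samples in 8 groups of 3 was used. The authors aligned paired-end reads with HISAT2 to mm10 (GRCm38), counted them with featureCounts (Rsubread) and name edgeR and limma; how they made the deposited log2 values, and their filter, is not stated. In 18 samples the deposited values are log2 CPM with an offset of 0.5 reads, checked by recovering whole reads within 0.02. In the 6 4T1 samples whole reads were not recovered, and the deposited values were taken as length-normalized log2 values of unknown depth. Their unit is not stated. Reads on listed genes had a median of 19.06M in MMTV-PyMT C44, 16.21M in 3B10, 17.17M in E0771 shCtrl, 17.97M in shPTN, 18.51M in E0771-LG shCtrl and 17.96M in shPTN.

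Genes whose linear value exceeded the sample's lowest by at least 1 in at least 3 samples were tested on the deposited log2 values with limma 3.58.1 in R 4.3.3 (lmFit, eBayes with trend and robust), 2-sided, within each experiment, with Benjamini-Hochberg over all genes tested and a threshold of 0.05. The interaction came from a 4-group fit of the cell lines. A gene low in 1 group can pass the filter through the other group alone, and its direction then follows in part from the filter. The smallest exact 2-sided p of 3 against 3 samples is 0.1. The procedure was tested on simulated data. Tables were read in Python 3.11.15 with pandas 2.3.3, numpy 2.4.6 and scipy 1.17.1, and plots drawn with matplotlib 3.10.9. Gene lengths came from GENCODE vM21.

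Values in every sample are given for Psmb5, Psmb6, Psmb7, Psmb10, Psme1 and Psme2, and in each comparison for up to 4 members in each direction with the smallest adjusted p among those past the threshold whose groups did not overlap, or, where none passed, the 2 with the largest change. Ptn checks the knockdown. Other genes were named after their values were seen. Members and the lists of partners, antigen-processing genes and markers of epithelial, leukocyte, fibroblast, endothelial, skeletal muscle and adipocyte cells were chosen with earlier results of these data known. Of the first 2 lists, 3 genes are not reported here, and counts leave them out.

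Alternatives were no filter, a minimum of 5, pseudocounts of 1 and 0.1, median-of-ratios scaling, quantile normalization, eBayes not robust, a fit of all 24 samples, voom on recovered reads, a replicate block, a spline correction (5 degrees of freedom) for GC content and length over all exons, and leaving out each library. The same correction on the representative mRNA or its coding sequence was chosen after seeing the data.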

Additional observations from a re-analysis of the deposited data

Results flagged for a closer look

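The E0771-LG and E0771 knockdown effects on proteasome genes differed by the interaction term, tested in limma with Benjamini-Hochberg over all genes tested. The difference was positive for 29 of 44 members, where 18.8% of all genes were, and negative for 2, where 16% were, at an adjusted p under 0.05. On the log2 scale it was 0.94 for Psmb5, 0.57 for Psmb6, 0.63 for Psmb7, 0.93 for Psma7, 0.97 for Psmc2, 0.91 for Psmc6, 0.77 for Psmd4, 1.25 for Psme1 and 0.76 for Psme2. It was −0.84 for Psmb10 and −0.40 for Psme3. Without E0771 shCtrl replicate 3, Psme2 (0.70, adjusted p = 0.0909) and Psme3 (−0.37, adjusted p = 0.0961) missed the threshold. Psme2 passed only without E0771 shPTN replicate 1 or E0771-LG shCtrl replicate 2, and Psme3 only without those or E0771 shCtrl replicate 1. When GC content and length were corrected for, either over all exons or, chosen after seeing the data, on the representative mRNA, Psmb5 had 0.35 and 0.35 (adjusted p = 0.0542 and 0.0623), Psmb7 0.42 and 0.17 (0.0607 and 0.318) and Psmb6 0.22 and −0.04, and Psme2 missed the threshold under both. Of the 14 core subunits, 7 and 5 then passed, where 15.5% and 14.4% of all genes were higher, against 14 without a correction and 14 on coding length (17.3%). The cause of these differences was not tested.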

How the results depend on the processing

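Leaving out 1 library at a time gave ranges of 0 to 0 members higher, 0 to 0 lower and a median of 0.122 to 0.168 in 4T1, and of 0 to 0, 0 to 0 and −0.0614 to 0.108 in MMTV-PyMT. The ranges were 0 to 1, 0 to 17 and −0.291 to −0.126 in E0771, and 22 to 29, 2 to 5 and 0.318 to 0.381 in E0771-LG. They were 26 to 29, 1 to 2 and 0.486 to 0.673 for the interaction, and 11 to 12, 1 to 4 and −0.0188 to 0.0549 between the controls. In E0771, 6 members were lower with median-of-ratios scaling and 3 in the fit of all 24 samples. Under quantile normalization the E0771-LG median was 0.422, 1 member was lower in the interaction and 4 between the controls. The lower count was 1 in the interaction in the fit of all 24 samples, and 1 between the controls without a filter, in that fit and with median-of-ratios scaling, where the median was 0.168. Each correction that follows has its value with a block on the replicate number in parentheses, though no pairing of replicates between groups is stated. With the correction over all exons E0771-LG had 12 (block 12) members higher and a median of 0.0639 (block 0.0639), with Psmb6 reversed to −0.02 (block −0.02) and Psme2 to −0.33 (block −0.33); the interaction had 15 (block 15) higher and 0.24 (block 0.24), and the controls 0 (block 0) lower and 0.116 (block 0.116). With that on the representative mRNA, chosen after seeing the data, E0771-LG had 7 (block 8) higher, 7 (block 7) lower and 0.0232 (block 0.0232), with Psmb6 at −0.28 (block −0.28), Psme2 at −0.42 (block −0.42) and Psme4 at 0.04 (block 0.04). The interaction then had 13 (block 12) higher, 4 (block 4) lower, 0.189 (block 0.189) and Psmb6 at −0.04 (block −0.04), the controls 1 (block 1) lower and 0.112 (block 0.112), and the 4T1 median was 0.0923 (block 0.0923). With that on coding length, also chosen after seeing the data, the medians were 0.28 (block 0.28) in E0771-LG, 0.432 (block 0.432) in the interaction and 0.139 (block 0.139) between the controls, with 1 (block 1) lower there. The cause was not tested. Under the 3 corrections in turn, members higher between the controls went from 12 to 14 (block 15), 16 (block 16) and 17 (block 17), and members lower in E0771 from 10 to 14 (block 11), 14 (block 11) and 12 (block 11). Between the controls the median of all genes moved as well, from −0.15 to 0.05 under each correction. The share of all genes higher there was not counted. Depth limits Psmb10 most in E0771 shCtrl, at 201 reads in its lowest library.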
